A study of Drosophila melanogaster with 4 samples.

Results

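The genes described here encode enzymes of the tricarboxylic acid (TCA) cycle together with the kinase that governs pyruvate entry and the enzyme that makes lipoic acid, a cofactor of the cycle. They were the rows of the deposited table whose symbol was kdn, Acon, Idh, Nc73EF, skap, Mdh1, Mdh2, Pdk or Las. All 9 were found, of 13012 genes in the table.

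Thoraces were dissected for RNA-seq from mated female Drosophila, labelled as 10 days of age and kept on a high calorie diet. All flies carried Act88FGS, a GeneSwitch driver for thoracic muscle, which is a GAL4 fusion that switches on UAS transgenes only when flies are fed RU486. It drove UAS-MEF2 RNAi, which targets the muscle transcription factor Mef2, or was crossed to w1118 as the control without the RNAi transgene. Flies of each genotype received RU486 (+RU486) or its ethanol vehicle (-RU486), which gives 4 groups. Each group had 1 library from 8 pooled thoraces, so the spread between replicates is unknown and no comparison carries a p-value. A whole thorax also holds gut, nerve, fat body and blood cells, and fewer cells of a type cannot be told apart from less RNA per cell.

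The deposited values are log2 values that sum to 0 over the 4 libraries of a gene. A value is therefore a difference from the mean of that gene and not an expression level, and neither the depth of a library nor the muscle identity of the sample can be read from it. The libraries did not share a level. Over all genes, the log2 fold change (+RU486 over -RU486) had a median of -0.38 in MEF2 RNAi thoraces and 0.36 in controls, and these shifts stand behind every value on the deposited scale. Of 15 germline genes on a list of cell type markers, 13 had their highest value in MEF2 RNAi thoraces with RU486, as did 516 of all 13012 genes. In that library the list ranged from -0.11 to 1.70. In the other 3 libraries it ranged from -0.68 to 0.25. The fold change of Mef2 itself was 0.647 in MEF2 RNAi thoraces and 1.25 in controls, a ratio that includes these shifts.

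The TCA cycle oxidises acetyl groups in the mitochondrial matrix and passes their electrons to the respiratory chain. Insect flight muscle is among the tissues with the highest rates of aerobic metabolism, and it feeds the cycle mainly with pyruvate from sugar. Pyruvate enters through the pyruvate dehydrogenase complex, which the kinase Pdk switches off by phosphorylation. Citrate synthase (kdn) joins acetyl-CoA to oxaloacetate, and the iron-sulfur enzyme aconitase (Acon, now named mAcon1) turns citrate into isocitrate. Isocitrate is oxidised in the cycle by an NAD-dependent enzyme of several subunits, whereas Idh encodes the NADP-dependent isocitrate dehydrogenase, which supplies NADPH. Nc73EF (now Ogdh) encodes the E1 subunit of the oxoglutarate dehydrogenase complex, and skap (now ScsbetaA) a beta subunit of succinyl-CoA synthetase. Malate is oxidised to oxaloacetate by Mdh2 in mitochondria, and Mdh1 is the cytosolic form that serves the malate-aspartate shuttle. Las, lipoic acid synthase, is itself an iron-sulfur enzyme. It completes the lipoyl groups that the oxoglutarate and pyruvate dehydrogenase complexes need in order to work.

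The positions of these genes are given from the BDGP6 annotation, and whether the authors counted on this build is not given in the sources used here. Las is a short gene on chromosome 3L, from 20430605 to 20432361 on the minus strand, with 1 annotated transcript and no overlapping gene. Nc73EF lies on 3L, from 16954822 to 16968724 on the plus strand, and overlaps 3 other annotated features, 2 of them on its own strand. kdn lies on the X chromosome, from 6350629 to 6361323, and overlaps none. Acon is on 2L, from 21168570 to 21173185, with 2 annotated genes on the opposite strand. skap is on 3R, from 8938724 to 8943027, with 1 overlapping gene on the opposite strand. Idh (3L, 8356404 to 8360906), Mdh1 (2L, 10393774 to 10396332), Mdh2 (3R, 18226396 to 18228718) and Pdk (2R, 9426439 to 9434638) overlap no other annotated gene. The library kit keeps strand, but how reads were assigned to overlapping genes is not given in the sources used here, so the values of Nc73EF, Acon and skap may hold reads of their neighbours.

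Across the 4 libraries the 9 genes followed 3 patterns. Las and Nc73EF were far lower in MEF2 RNAi thoraces with RU486 than in any other library, and differed little between the control libraries. kdn stood out in the other direction, with a single high value in control flies fed RU486. The remaining 6 genes alternated, with higher values in MEF2 RNAi thoraces without RU486 and in controls with RU486 and lower values in the other pair of libraries. Opposite directions of this kind in the 2 genotypes, lower with RU486 under MEF2 RNAi and higher in controls, were found in 7 of the 9 genes and in 83.7% of all genes.

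Las had a log2 value of -0.56 in MEF2 RNAi thoraces with RU486, 0.43 in the same genotype without it, 0.040 in controls with RU486 and 0.084 in controls without. Nc73EF had -0.57, 0.39, 0.065 and 0.11 in the same order. The E1 subunit and the enzyme that makes the cofactor of its complex were thus the closest pair of all 9 genes, 0.055 apart as a Euclidean distance over the 4 libraries. In kdn the 4 values were -0.17, -0.061, 0.67 and -0.43, so that the control libraries held its highest and its lowest value and both MEF2 RNAi libraries lay between them. Acon had -0.53, 0.19, 0.40 and -0.058. Its lowest value was as deep as those of Las and Nc73EF, while its highest was in controls with RU486.

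Mdh2 had -0.35 and 0.27 in MEF2 RNAi thoraces with and without RU486 and 0.23 and -0.15 in controls. For skap the corresponding values were -0.33, 0.21, 0.26 and -0.14. Both mitochondrial enzymes were lowest in MEF2 RNAi thoraces with RU486. Mdh1 had -0.22, 0.26, 0.24 and -0.27, Idh had -0.24, 0.21, 0.25 and -0.22, and Pdk had -0.21, 0.16, 0.31 and -0.26. These 3 genes, for the cytosolic malate dehydrogenase, the NADP-dependent isocitrate dehydrogenase and the regulatory kinase, sat close to the library medians of all genes (-0.18, 0.19, 0.17 and -0.18) and of 85 cytosolic ribosomal protein genes (-0.20, 0.27, 0.21 and -0.28).

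**Figure D1:**
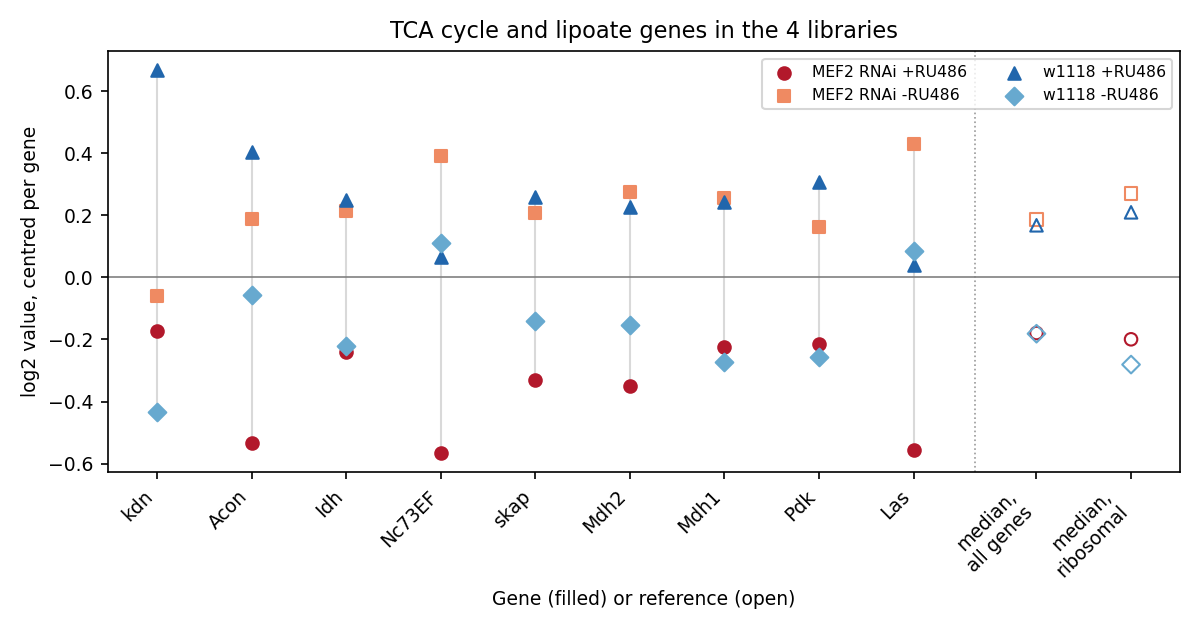
Log2 values, centred per gene, of the 9 genes in each library (1 per group; filled symbols) beside the median of all 13012 genes and of 85 ribosomal protein genes (open symbols). Las, Nc73EF and Acon have the lowest values in MEF2 RNAi with RU486, Las and Nc73EF are nearly level between the control libraries, and kdn has 1 high library, w1118 with RU486.

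Upon RU486 feeding, all 9 genes had lower values in MEF2 RNAi thoraces, as did 88.9% of all genes. Las had a fold change of 0.505 (+RU486 over -RU486, 2 to the power of the difference in log2 values) and Nc73EF of 0.515, against 0.970 and 0.969 in controls. Only 0.438% and 0.515% of all genes had a lower fold change in MEF2 RNAi thoraces than Las and Nc73EF. Acon followed with 0.608, Mdh2 with 0.649, skap with 0.689, Mdh1 with 0.717, Idh with 0.730 and Pdk with 0.770. kdn, which commits acetyl-CoA to the cycle, was nearly level at 0.925, a fold change higher than that of 74.3% of all genes. As a median over the 9 genes the log2 fold change was -0.54, beside -0.38 for all genes.

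In controls 7 of the 9 genes had higher values with RU486, beside 93.1% of all genes. The exceptions were Las and Nc73EF, with log2 fold changes of -0.044 and -0.045, whereas values below 0 were found in 6.91% of all genes. kdn had a fold change of 2.15 in controls, and 0.769% of all genes had a higher one. It was the only one of the 9 at or above 1.5 in controls, which 6.54% of all genes reached. The study used a fold of 1.5 in MEF2 RNAi thoraces, for genes not higher in controls, so kdn is not a higher gene by its rule. Pdk (1.48), Mdh1 (1.43), Idh (1.39), Acon (1.38), skap (1.32) and Mdh2 (1.30) were closer together. As a median over the 9 genes the log2 fold change in controls was 0.46, beside 0.36 for all genes.

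The study took genes as lower at a fold change of 0.65 or less under MEF2 RNAi, provided that they were not lower in controls, and its text gives no limit for the controls. Read as a control fold change above 0.65, which is the criterion used below, 4 of the 9 genes passed. They were Las, Nc73EF, Acon and Mdh2, and 6.96% of all genes passed, or 8.29% without the genes that lay within 0.1 of 0 in every library. Read as a control fold change of at least 1, only Acon and Mdh2 passed, 2 of the 9 beside 6.16% of all genes, since Las and Nc73EF were slightly below 1 in controls. Mdh2, at 0.649, was just inside the limit and skap, at 0.689, was the first outside it. Once the libraries were aligned on their all-gene medians, none of the 9 passed and the share of all genes was 0.3%. The nearest was then Las, at 0.6503, followed by Nc73EF at 0.664 and Acon at 0.782. Setting the libraries to the median of the ribosomal protein genes also left 0 of the 9, beside 0.0922% of all genes, with Las at 0.699 and Nc73EF at 0.714.

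**Figure D2:**
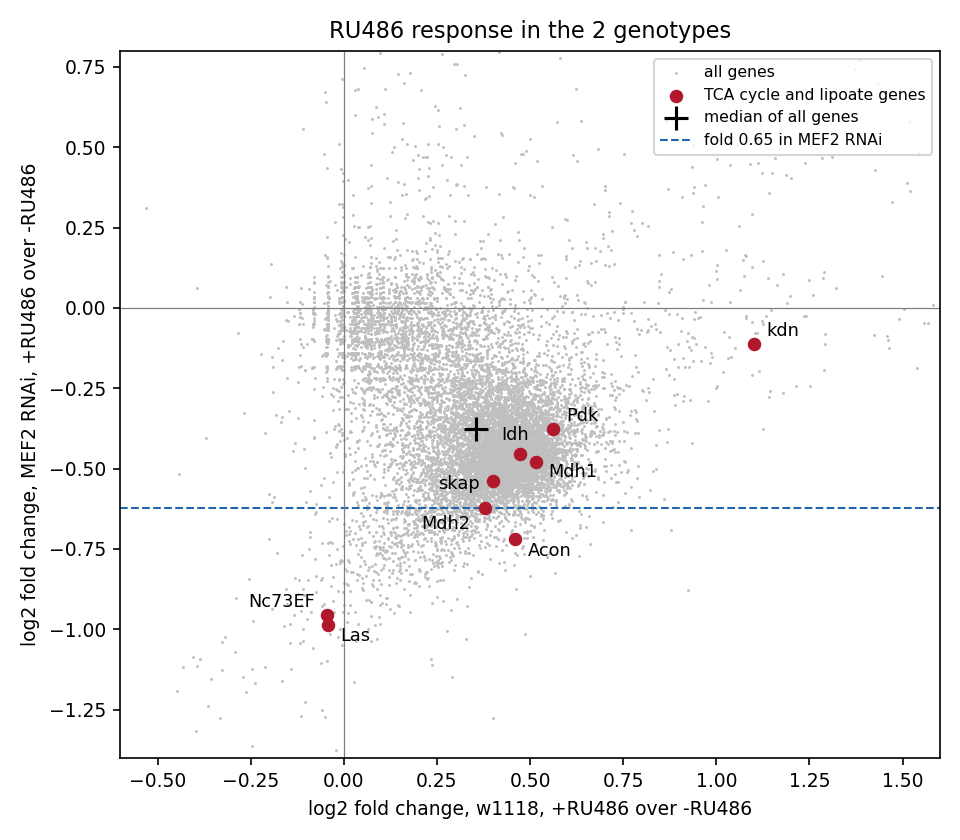
Log2 fold change upon RU486 in w1118 controls (x axis) and in MEF2 RNAi thoraces (y axis), 1 point per gene on the deposited scale, with 93 of the 13012 genes outside the window. Acon, Nc73EF, Las and, barely, Mdh2 lie below the dashed line at a fold change of 0.65, kdn lies far to the right, and the other 4 genes lie near the bulk of all genes.

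Directions also moved with the scale. On the scale of all genes, 8 of the 9 were lower with RU486 in MEF2 RNAi thoraces (51.9% of all genes), and kdn went from -0.11 to 0.25 as log2 fold change. Las had -0.62 and Nc73EF -0.59 in MEF2 RNAi thoraces on that scale, and -0.39 and -0.39 in controls. Acon had -0.35 and 0.11, and Mdh2 -0.26 and 0.031. In controls 7 of the 9 were higher on that scale (51.4% of all genes). Relative to the ribosomal protein genes, Las had -0.52 in MEF2 RNAi thoraces and -0.53 in controls, and Nc73EF had -0.49 and -0.54. On this scale 6 of the 9 genes were lower with RU486 under MEF2 RNAi (31% of all genes), and 3 (kdn, Mdh1 and Pdk) were higher in controls (19% of all genes). On both reference scales Las and Nc73EF were therefore lower with RU486 in both genotypes, whereas the deposited scale showed low values in MEF2 RNAi thoraces beside nearly level controls.

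A comparison of genes within the same libraries does not depend on how the libraries are scaled. Mdh2, the mitochondrial malate dehydrogenase, was taken as the common denominator after the values were seen. Relative to Mdh2, the log2 fold change of Las upon RU486 was -0.36 in MEF2 RNAi thoraces and -0.42 in controls, and that of Nc73EF was -0.33 and -0.42. Both genes lay below Mdh2 in both genotypes, and the values of the genotypes differed by 0.060 for Las and 0.091 for Nc73EF. kdn was higher than Mdh2 in both, by 0.51 in MEF2 RNAi thoraces and 0.72 in controls. Mdh1 differed from Mdh2 by 0.14 in each genotype. Acon lay below Mdh2 in MEF2 RNAi thoraces (-0.096) and above it in controls (0.081). This crossing depended on the denominator. Relative to Mdh1, Acon lay below in both genotypes (-0.24 and -0.055), and Idh had 0.025 and -0.044. Las (-0.51 and -0.56), Nc73EF (-0.48 and -0.56) and kdn (0.37 and 0.59) kept their sides of 0 with Mdh1 as denominator.

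**Figure D3:**
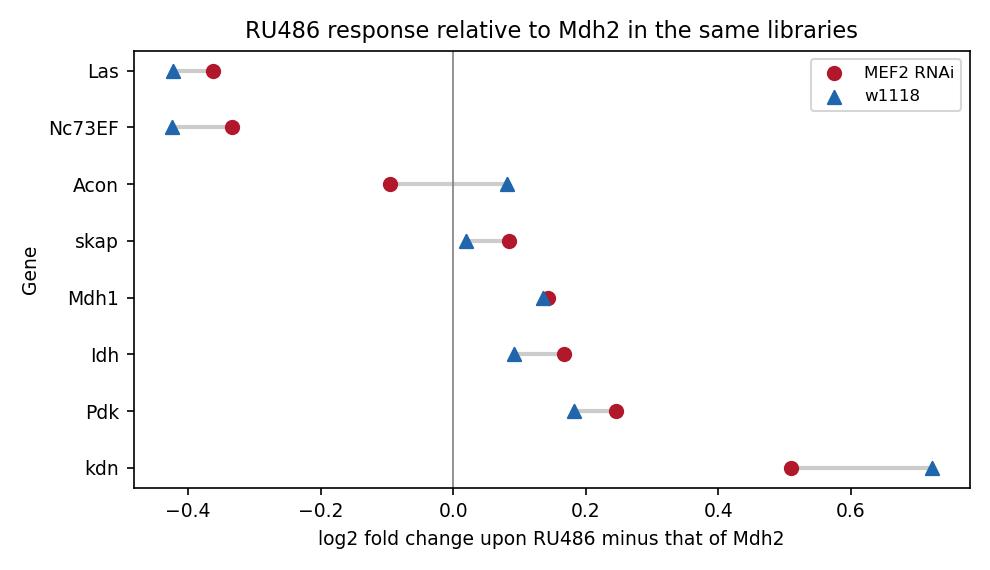
Log2 fold change upon RU486 of 8 genes minus that of Mdh2 in the same libraries, in MEF2 RNAi thoraces (circles) and w1118 controls (triangles). Las and Nc73EF sit left of 0 and kdn right of 0 in both genotypes. Acon crosses 0 with Mdh2 as denominator, but not with Mdh1 (-0.24 and -0.055).

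The difference between the log2 fold changes of the genotypes (MEF2 RNAi minus controls) ranked the genes in another order than the fold change in MEF2 RNAi thoraces alone. It was largest in size for kdn (-1.21) and Acon (-1.18), and 0.999% and 1.38% of all genes had a lower difference. The other 7 genes lay between -1.00 for Mdh2 and -0.91 for Nc73EF, with Las at -0.94. Las and Nc73EF, which had the lowest fold changes in MEF2 RNAi thoraces, were in the middle and at the end of this order, and 21.3% and 27.4% of all genes had a lower difference. The median difference was -0.94 for the 9 genes, -0.78 for all genes and -0.96 for the ribosomal protein genes. After scaling to all genes the 9 differences ran from -0.50 to -0.20. After scaling to ribosomal protein genes kdn (-0.25) and Acon (-0.22) remained the lowest and the other 7 lay between -0.043 and 0.048.

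The 4 centred values of a gene hold 3 independent contrasts (genotype, RU486 and their interaction), and the sum of squares can be divided among them. The interaction held 99.6% of it for Idh, 99.5% for Mdh1 and 95.2% for Pdk, shares above 95% being found in 33.5% of all genes. It held 92.5% for Mdh2, 91.9% for skap and 72.0% for Acon. For Las and Nc73EF the RU486 contrast was the larger one, with 52.7% and 51.3%, against 44.2% and 42.4% for the interaction. kdn divided into 55.2% for the interaction and 36.6% for RU486, which in kdn had the opposite sign to Las, since its mean was higher with RU486. These shares include the common shifts of the libraries.

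The flies fed RU486 can also be compared directly between genotypes. All 9 genes had lower values in MEF2 RNAi thoraces than in controls, by 0.47 (Mdh1) to 0.93 (Acon) on the log2 scale, beside 93.6% of all genes. After scaling to all genes all 9 were still lower in MEF2 RNAi thoraces, beside 53.2% of all genes, with log2 differences from -0.12 for Mdh1 to -0.59 for Acon. Relative to ribosomal protein genes the 9 differences ran from -0.058 to -0.53, and 39.6% of all genes were lower. The direction of this comparison was thus the same for each of the 9 genes under the 3 scalings. kdn and Acon were the lowest under each of them, with -0.84 and -0.93 as deposited and -0.43 and -0.53 relative to ribosomal protein genes.

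Without RU486, all 9 genes had higher values in MEF2 RNAi thoraces than in controls on the deposited scale, as did 94.5% of all genes, with differences from 0.25 for Acon to 0.53 for Mdh1. Relative to all genes 5 of the 9 were higher (52.5% of all genes) and the differences ran from -0.12 to 0.16. Relative to ribosomal protein genes none of the 9 was higher, beside 10.2% of all genes, and Acon was the lowest at -0.31. The genotypes therefore had no common order in the uninduced flies across the scalings. These comparisons draw on the same 4 libraries as those above.

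The rest of the cycle was read from a list of 12 further genes. All 12 had lower values with RU486 in MEF2 RNAi thoraces, with a median of -0.65 on the log2 scale and a range of -0.94 to -0.40, and 8 of them passed the criterion for lower genes. Over all genes 88.9% were lower and 6.96% passed, so that 12 of 12 is near the background of lower values as deposited. Relative to all genes all 12 were still lower, beside 51.9% of all genes. Relative to ribosomal protein genes 11 of the 12 were lower, beside 31%. In controls 7 and 11 of the 12 were lower on these scales, beside 6329 and 10540 of 13012 genes. The 17 genes for enzymes of the cycle itself (kdn, Acon, Nc73EF, skap and Mdh2 with these 12) had a median of -0.64 in MEF2 RNAi thoraces and 0.38 in controls, and 11 passed (6.96% of all genes). Relative to all genes the medians of the 17 were -0.28 and 0.031, and none passed, beside 0.3% of all genes.

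The NAD-dependent isocitrate dehydrogenase has 3 subunit genes on this list, and their values differed. Idh3a (listed as l(1)G0156) had fold changes of 0.520 in MEF2 RNAi thoraces and 0.998 in controls, close to Las and Nc73EF. Idh3b had 0.592 and 1.14, and Idh3g (CG5028) had 0.679 and 1.52. The NADP-dependent Idh had a fold change of 0.730 under MEF2 RNAi, above those of all 3 subunits, and of 1.39 in controls.

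In the oxoglutarate dehydrogenase complex, the E1 gene Nc73EF (0.515 and 0.969) lay below its partners. The E2 gene Dlst (CG5214), whose product carries the lipoyl group, had fold changes of 0.620 and 1.21. The E3 gene Dld (CG7430), shared with pyruvate dehydrogenase, had 0.662 and 1.34. Among the genes of succinyl-CoA synthetase, the alpha subunit gene Scsalpha had 0.640 and 1.22. The beta subunit genes skap and ScsbetaG (listed as Sucb) had 0.689 and 1.32, and 0.759 and 1.38. Fumarase (Fum1, listed as l(1)G0255) had 0.652 and 1.23, just outside the limit.

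Of the succinate dehydrogenase genes all 4 passed, with a median of -0.70 on the log2 scale in MEF2 RNAi thoraces, and of 15 glycolysis genes 8 passed, with a median of -0.63, beside 6.96% of all genes. Relative to all genes none of either list passed, beside 0.3% of all genes. The 9 genes had a median of -0.54 and a wider range, from -0.99 to -0.11, against -0.80 to -0.64 for succinate dehydrogenase and -0.80 to -0.29 for glycolysis. In controls the 9 genes ranged from -0.045 to 1.10, succinate dehydrogenase from 0.18 to 0.43 and glycolysis from 0.15 to 0.51. With 1 library per group, whether the lists differ could not be tested.

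**Figure D4:**
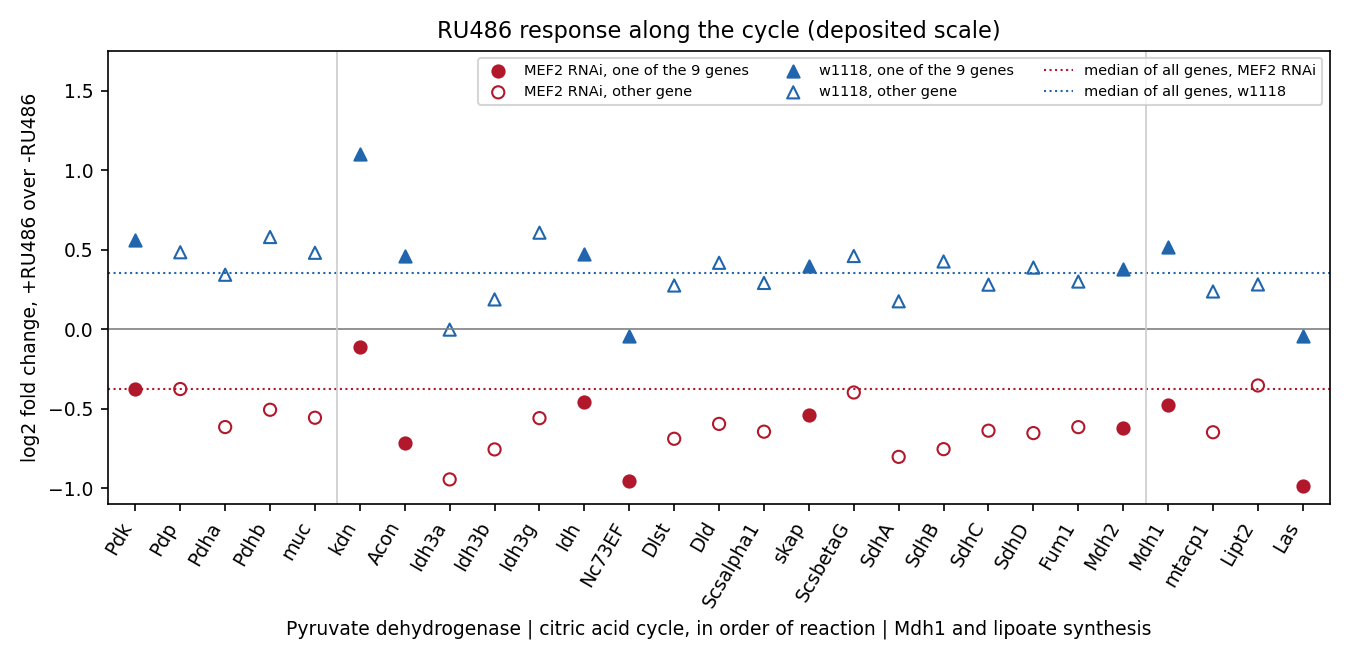
Log2 fold change upon RU486 on the deposited scale in MEF2 RNAi thoraces (circles) and w1118 controls (triangles), for genes of the pyruvate dehydrogenase complex, the cycle in order of its reactions (with Idh beside the NAD-dependent subunits), and Mdh1 with lipoate synthesis. Filled symbols are the 9 genes, open symbols other genes of the lists, and dotted lines the medians of all genes (-0.38 and 0.36). Idh3a, Nc73EF and Las form the lowest points in both genotypes.

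Pyruvate dehydrogenase is governed by Pdk and by the phosphatase Pdp, which reverses its action. Their log2 fold changes in MEF2 RNAi thoraces were both -0.38, equal to that of all genes, and 0.56 and 0.48 in controls. The subunit genes Pdha (listed as l(1)G0334), Pdhb (CG11876) and muc had fold changes of 0.653, 0.704 and 0.680 in MEF2 RNAi thoraces, each lower than the 0.770 of the kinase. None of these genes passed the criterion, which is near the share of 6.96% of all genes, and Pdha was just outside the limit. Their log2 fold changes relative to all genes were -0.25, -0.14 and -0.19 in MEF2 RNAi thoraces and -0.0071, 0.23 and 0.13 in controls.

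Las had a lower fold change in MEF2 RNAi thoraces than the other genes of lipoate metabolism in the table. Of 7 such genes listed, 6 were in the table, all of them lower with RU486 in MEF2 RNAi thoraces and higher in controls, and 1 passed the criterion, beside 83.7% and 6.96% of all genes. It was mtacp1 (listed as ND-ACP), the acyl carrier protein on which the octanoyl precursor of lipoate is built, at 0.638 in MEF2 RNAi thoraces. Lipt2 (CG9804), the octanoyl transferase that acts before lipoic acid synthase, had 0.782 and lay at 0.011 on the log2 scale relative to all genes. The lipoylated or lipoate-dependent proteins of other complexes, ppl, Dbct, BckdhA and BckdhB, had fold changes from 0.670 to 0.758. All 6 thus had higher fold changes than Las (0.505). In controls too all 6 lay above Las, with log2 fold changes from 0.24 to 0.54 beside -0.044. The difference between the genotypes (MEF2 RNAi minus controls) was -0.94 for Las, beside a median of -0.90 for the 6.

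Iron-sulfur clusters are needed by Las, Acon and SdhB, and the genes that assemble these clusters were listed too. Of 9 listed genes 8 were in the table, all lower with RU486 in MEF2 RNAi thoraces, with a median log2 fold change of -0.84, and 5 passed, beside 88.9% and 6.96% of all genes. None passed relative to all genes, beside 0.3% of all genes. The cysteine desulfurase Nfs1 (CG12264) had fold changes of 0.564 in MEF2 RNAi thoraces and 1.02 in controls, frataxin (fh) 0.557 and 1.02, and MagR 0.556 and 1.07. ISCA2 (CG13623), a late-acting assembly protein, had 0.438 and 0.733. The scaffold gene IscU (0.616 and 1.25) and bcn92 (0.659 and 1.22) lay further from Las (0.505 and 0.970), with higher values in controls. Relative to all genes, 7 of the 8 were lower with RU486 in MEF2 RNAi thoraces, beside 51.9% of all genes, and CG32857 was higher (0.25). In controls all 8 were lower on that scale, beside 6329 of 13012 genes, with a median of -0.31, and Las had -0.39. CG33502 (0.556 and 0.623) and CG32857 (0.922 and 1.01) on this list are near-identical copies, and their values are uncertain. CG32857 also lay within 0.1 of 0 in all 4 libraries. Its values relative to all genes, 0.25 in MEF2 RNAi thoraces and -0.34 in controls, therefore come mostly from the rescaling.

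How common each pattern was in the table differed between the genes. Within a Euclidean distance of 0.1 over the 4 libraries, Idh had 2643 other genes, Mdh1 2343, Pdk 1204, skap 772 and Mdh2 616. Las had 12, kdn 8, Nc73EF 8 and Acon 2. The nearest gene outside the 9 was CG44098 for Las (0.035), Rim2 for Nc73EF (0.057), Atg14 for kdn (0.044) and CG5246 for Acon (0.080). For Idh it was CG10103 (0.0040), for Mdh1 CG15099 (0.0059), for Pdk mew (0.0084), for skap mxt (0.0068) and for Mdh2 Octbeta2R (0.014). With 4 centred values, such distances describe these libraries only.

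The highest value of none of the 9 genes was in MEF2 RNAi thoraces with RU486. Over all genes it was there in 516 of 13012, so none of 9 is near the background. Of the 15 germline genes 13 had it there. In that library 6 of the 9 had their lowest value, beside 48.2% of all genes, and the other 3 (kdn, Mdh1 and Pdk) were lowest in controls without RU486, beside 47.4%. The highest value of 4 of them (Las, Nc73EF, Mdh1 and Mdh2) was in MEF2 RNAi thoraces without RU486, beside 49.3% of all genes. The 6 fat body, 4 neuronal and 3 hemocyte markers were all lower with RU486 in MEF2 RNAi thoraces, near the background of 88.9% of all genes. Their median log2 fold changes were -0.58, -0.53 and -0.48, beside -0.38 for all genes. Of the 8 muscle markers 7 were lower, and fln was not (0.018). The muscle medians were -0.47 in MEF2 RNAi thoraces and 0.54 in controls, beside -0.38 and 0.36 for all genes. The part of the other cell types in the values of the 9 genes was not tested.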

How the data were processed

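One table with 4 columns of log2 values, 1 per library, was deposited for 13012 genes. The 4 values of every gene sum to 0 to within 7.0e-15, so they were centred per gene before deposit. Libraries were made from total RNA with a stranded kit. Aligner, counting, build and normalization are not given in the sources used here. Depth is unknown, so no interval or floor is given.

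Differences in log2 values were turned into fold changes as powers of 2, on the deposited scale and with the libraries aligned on the median of all genes or of 85 cytosolic ribosomal protein genes. A further scale, added after the values were seen, left out genes within 0.1 of 0 in all 4 libraries. The members, lists and alternatives were chosen with earlier results of these data known. Named are the 9 members, genes of the lists, Mef2 and, for each member, the gene at the smallest Euclidean distance. Positions come from Ensembl release 115 (BDGP6), whose symbols match 10792 of the table names, and renamed genes were matched by synonym. Of the lists, Lipt1, CG32500, BicC and 7 of 14 paralogs of cycle genes were not analysed here. The calculations were tested on simulated centred values, with little noise and shifts larger than any log2 fold change of the 9 genes. That test checks the arithmetic and not the recovery of changes of the size reported here. Python 3.11.15, numpy 2.4.6, pandas 2.3.3 and matplotlib 3.10.9 were used.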

Additional observations from a re-analysis of the deposited data

Results flagged for a closer look

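In 7 of the 9 genes the log2 fold change upon RU486 had opposite signs in the 2 genotypes, below 0 in MEF2 RNAi thoraces and above 0 in controls. The difference between the genotypes, MEF2 RNAi minus controls, was -1.21 for kdn, -1.18 for Acon, -1.00 for Mdh2, -0.99 for Mdh1, -0.94 for Pdk, -0.94 for skap and -0.93 for Idh. None of these differences was tested, since each group has 1 library. Opposite signs of this kind were found in 83.7% of all genes, and the share among the 9 is near that background. Las and Nc73EF did not show them, because their values in controls were also slightly below 0.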

How the results depend on the processing

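The scale of the libraries moved the results most. The count of 4 genes that passed the criterion for lower genes was 0 relative to all genes, 0 relative to ribosomal protein genes and 0 relative to genes beyond 0.1 of 0, a scale added after seeing the data (0.3%, 0.0922% and 0.192% of genes). It was 2 with a control fold change of at least 1 (Acon and Mdh2; 6.16% of all genes), 2 with a limit of 0.60 (Las and Nc73EF; 2.68%), 5 with a limit of 0.70 (20%) and 3 against the mean of the other 3 libraries (0.776%). The median fold change of the 9 genes on the log2 scale in MEF2 RNAi thoraces, -0.54 as deposited, was -0.17, -0.069 and -0.12 on the same 3 scales, and lay between -0.62 and -0.44 under the other 4 alternatives. In controls the median of 0.46 went to 0.11 relative to all genes and to 0.068 relative to genes beyond 0.1 of 0. It reversed to -0.030 relative to ribosomal protein genes. For single genes, kdn in MEF2 RNAi thoraces reversed to 0.25 relative to all genes and to 0.36 relative to ribosomal protein genes. On the latter scale Idh (0.014) and Pdk (0.093) also reversed in MEF2 RNAi thoraces, and Acon (-0.030), Idh (-0.019), skap (-0.091) and Mdh2 (-0.11) in controls. These shifts follow from the rescaling itself, which adds 1 amount to every gene of a genotype. Which scale is nearer to the RNA content of the flies was not tested. No replicate could be left out, and no paired analysis was possible because each group has 1 library.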

Other observations

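Genes that carry carbon and electrons to and from the cycle were listed apart. All 12 had lower values with RU486 in MEF2 RNAi thoraces and higher values in controls, and 3 passed the criterion for lower genes, beside 83.7% and 6.96% of all genes. On either reference scale (all genes, ribosomal protein genes) none passed, beside 0.3% and 0.0922% of all genes. Those that passed as deposited were the mitochondrial pyruvate carrier genes Mpc1 and CG9399, with fold changes of 0.617 and 0.615 in MEF2 RNAi thoraces and 1.10 in controls for both, and aralar1, the aspartate-glutamate carrier of the malate-aspartate shuttle, with 0.637 and 1.28. The other carrier gene, CG9396, had 0.843 and 1.38. Pyruvate carboxylase (PCB), which feeds oxaloacetate into the cycle, had 0.749 and 1.44. The lactate dehydrogenase gene ImpL3 had 0.820 and 1.30. The aminotransferases of the shuttle, Got1 and Got2, had 0.732 and 0.690 in MEF2 RNAi thoraces, near the 0.717 of Mdh1.

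Of 14 paralogs of the genes of the cycle, 7 were in the table. None of the 7 passed the criterion, beside 6.96% of all genes, and none of 7 is near that share. Of the 7, 2 lay within 0.1 of 0 in all 4 libraries. CG14740, a paralog of kdn, had values within 0.1 of 0 in all 4 libraries. Its log2 fold changes (-0.0051 in MEF2 RNAi thoraces and 0.070 in controls) recur exactly in other genes. Whether CG14740 was detected is therefore unknown, and no contrast with the high value of kdn in controls with RU486 can be drawn. CG1544, a paralog of Nc73EF, had fold changes of 0.686 in MEF2 RNAi thoraces and 1.48 in controls, where Nc73EF had 0.515 and 0.969.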
